A study of Sus scrofa with 4 samples.

Results

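The 10 genes described here belong to bone morphogenetic protein (BMP) signalling and were chosen by name among the 29837 named genes of the count table. They are the ligand genes BMP2, BMP4 and BMP7, the receptor genes BMPR1A and BMPR2, the decoy receptor gene BAMBI, the secreted antagonist gene GREM1, and the target genes ID1, ID2 and ID3. All 10 passed edgeR's filter on low counts and were among the 15980 genes tested. GREM1 passed it through the LGR5-high libraries alone.

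BMPs are secreted ligands that bring type I and type II serine-threonine kinase receptors together. The receptors phosphorylate SMAD1, SMAD5 and SMAD9, which enter the nucleus with SMAD4 and switch on targets such as the ID genes. ID proteins lack a DNA-binding domain and hold the E proteins, their helix-loop-helix partners, away from DNA. In mouse skin, BMP signals from the niche keep hair follicle stem cells at rest, and secreted antagonists that bind the ligands release them at the start of a new hair cycle.

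RNA was sequenced from epidermal cells sorted from the skin of 2 juvenile LGR5-H2B-GFP pigs, named 88R and 95R, with 1 LGR5-high (GFP-hi) and 1 LGR5-negative (GFP-neg) library from each pig. In these pigs, CRISPR/Cas9 placed a histone H2B-GFP reporter in exon 1 of a single LGR5 allele of fetal fibroblasts, from which the animals were derived by nuclear transfer or by later breeding. Both populations carry the reporter allele, neither was treated, and H2B-GFP is diluted only as cells divide, so that GFP can outlast LGR5 transcription. Whether the pigs came from the same edited clone is not given in the sources used here, and the GFP-low cells of the sort were not analysed here.

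The libraries held between 30696803 and 32463362 counts on named genes, and 3 counts, taken as the floor, were worth between 0.0873 and 0.105 CPM (depth-scaled counts, with library sizes adjusted by edgeR's TMM method). LGR5 itself had 132 and 188 CPM in LGR5-high and 1.26 and 3.61 CPM in LGR5-negative of pigs 88R and 95R. The keratinocyte markers KRT5 and TP63 were present in all 4 libraries, KRT5 with between 789559 and 842315 counts and TP63 with between 18371 and 20037, and KRT14 was not analysed here. Of the 9 tested keratinocyte markers 1 was higher and 3 were lower in LGR5-high, and their summed level was 39900 and 42600 CPM against 104000 and 92700 CPM. KRT1 and KRT10, keratins of differentiating epidermis, made up most of that gap, with 2640 and 2290 against 31300 and 26800 CPM for KRT1 and 2770 and 2560 against 31000 and 26600 CPM for KRT10. Markers of immune cells and melanocytes were lower in LGR5-high for 5 of 6 and 5 of 7 tested genes. In pigs 88R and 95R, the immune markers summed to 9.54 and 7.26 against 103 and 147 CPM. The melanocyte markers summed to 62.5 and 62.6 against 85 and 261 CPM. Of these, DCT and MITF were not called, with 25.5 and 24 against 21.3 and 77.8 CPM and 25.2 and 29.7 against 21.6 and 23 CPM. Beside all such marker counts, here and below, stand 22.7% higher and 22.0% lower of all tested genes. In bulk RNA, fewer cells of a type and less RNA per cell cannot be told apart.

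Between LGR5-high and LGR5-negative cells, the BMP genes moved in both directions. Of the 10, GREM1, ID3 and ID2 had higher and BMP2, BMP7 and ID1 lower levels in LGR5-high (edgeR's quasi-likelihood test, adjusted p under 0.05 over all tested genes), and BMP4, BMPR1A, BMPR2 and BAMBI were not called. Of all tested genes, 22.7% were called higher and 22.0% lower, so that the 3 and 3 of 10 are near what all genes gave and say nothing of BMP genes as a group. The CPM of the populations did not overlap for 8 of the 10 genes, beside 76.6% of all tested genes. When the same test held the pig as a replicate block, BMPR2 was called higher as well, which made 4 higher and 3 lower, beside 28.5% and 27.2% of all tested genes. DESeq2 with the same block did not call BMPR2 and gave 3 higher and 2 lower. Without TMM, scaled by library size only, 5 of the 10 were higher and 2 lower, and the share of higher genes among all called genes went from 50.9% to 70.2%. That scaling moved the median change over all genes from 0.02 to 0.24 on the log2 scale.

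**Figure D1:**
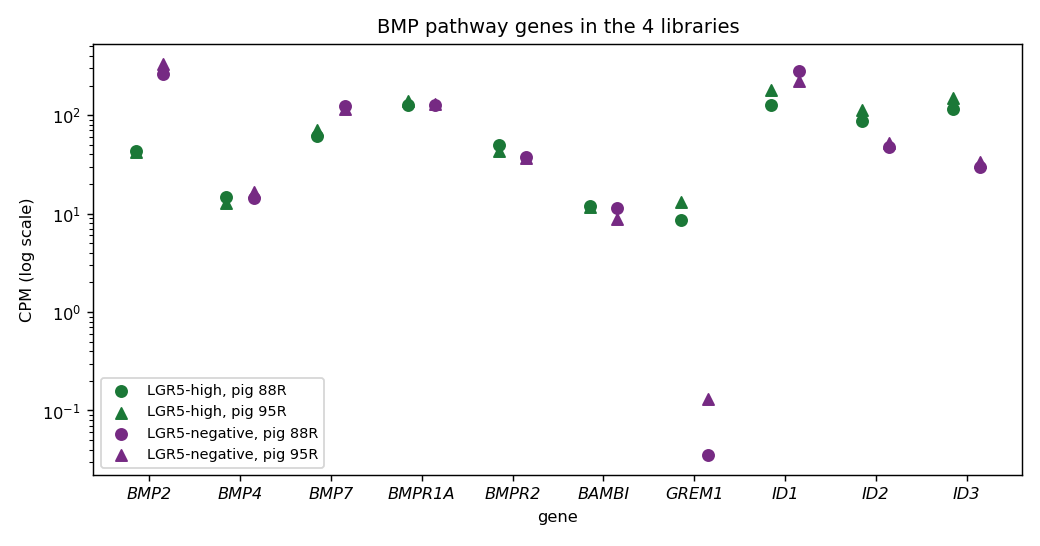
Level of each of the 10 genes in CPM (log axis) in the LGR5-high (green) and LGR5-negative (purple) libraries of pigs 88R (circles) and 95R (triangles). GREM1 lay at 8.7 and 13 CPM in LGR5-high and near the floor in LGR5-negative, BMP2 lay lower in LGR5-high, and the points of BMPR1A nearly coincided.

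The ligand genes divided into BMP2 and BMP7, which were lower in LGR5-high, and BMP4, which was not called. BMP2, an epidermal and follicular ligand that acts on type I receptors such as BMPR1A, had 43.7 and 42 CPM in LGR5-high and 263 and 335 CPM in LGR5-negative of pigs 88R and 95R. The LGR5-high libraries were alike and both far under the LGR5-negative ones. BMP2 was 6.98-fold lower in LGR5-high, a log2 fold change of -2.8 (standard error 0.136, edgeR adjusted p = 0.000102). The difference within pigs 88R and 95R was -2.59 and -2.99 on the log2 scale.

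BMP7, a ligand of the same family that also signals through ACVR1, had 61.4 and 71.4 CPM in LGR5-high and 125 and 117 CPM in LGR5-negative of pigs 88R and 95R. The populations did not overlap, and the gap was smaller than that of BMP2. Its log2 fold change was -0.86 (standard error 0.102, edgeR adjusted p = 0.00154), and the difference within pigs 88R and 95R was -1.02 and -0.71. BMP4, a ligand produced by the dermal papilla as well as by epithelium, had 14.9 and 12.7 CPM in LGR5-high and 14.5 and 16.7 CPM in LGR5-negative. Its libraries overlapped and its difference went opposite ways in the pigs, 0.04 in 88R and -0.4 in 95R on the log2 scale. The estimate for BMP4 was -0.18 (standard error 0.151, edgeR adjusted p = 0.372), and it was 0.04 with library size only.

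The list of the other BMP and GDF ligands held 14 genes, of which 6 were tested, with a median log2 fold change of 0.6. Of these 6, 1 was higher and 2 were lower, beside 22.7% and 22.0% of all tested genes. BMP3, a ligand known to oppose other BMPs, had 4.1 and 2.66 CPM in LGR5-high and 54.5 and 28.7 CPM in LGR5-negative of pigs 88R and 95R. It was lower in LGR5-high with a log2 fold change of -3.62 (standard error 0.379, edgeR adjusted p = 0.00103). BMP2, BMP7 and BMP3 were thus lower in LGR5-high, as were the differentiation keratins KRT1 and KRT10 (log2 fold changes of -3.56 and -3.44). So were most, but not all, of the immune and melanocyte markers above. The part of those cells in the ligand levels was not tested.

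BMP8A had 3.23 and 1.12 CPM in LGR5-high and 0.737 and 0.364 in LGR5-negative of pigs 88R and 95R, with a log2 fold change of 1.98 (edgeR adjusted p = 0.0488). Its call was lost without the LGR5-high library of pig 88R (1.02, edgeR adjusted p = 0.271), without the LGR5-negative library of pig 88R (2.57, 0.0533) and without the LGR5-negative library of pig 95R (1.56, 0.147). Of all 14 alternatives, 8 called BMP8A, and limma-voom (adjusted p = 0.0808) and the t-test (adjusted p = 0.31) were among those that did not. BMP8A and BMP8B are close paralogs, and how reads they share were counted is not given in the sources used here. NODAL, a ligand of the activin receptors, held between 5 and 26 counts per library and had a log2 fold change of -1.84 (edgeR adjusted p = 0.0267). The call was lost without either library of pig 88R (-2.38 without LGR5-high and -1.63 without LGR5-negative) and without the LGR5-high library of pig 95R (-1.45). DESeq2 did not call NODAL either, without the block (adjusted p = 0.103) or with it (adjusted p = 0.192). Of the 13 alternatives that gave NODAL a value, 7 called it. In the Sscrofa11.1 annotation NODAL overlaps EIF4EBP2, which held 8542 and 7706 counts in LGR5-high and 12575 and 14042 in LGR5-negative, so the origin of the NODAL reads is uncertain. BMP10 and BMP15 had 0 counts in all libraries.

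Neither receptor gene of the 10 was called. BMPR1A, the type I receptor whose loss in mice takes follicle stem cells out of rest, had 128 and 140 CPM in LGR5-high and 127 and 130 CPM in LGR5-negative of pigs 88R and 95R. Its libraries overlapped, and the log2 fold change was 0.05 (standard error 0.0821, edgeR adjusted p = 0.621). With library size only it was 0.28 (edgeR adjusted p = 0.0363), beside the median of 0.24 for all genes under that scaling, and no other of the 14 alternatives called it (adjusted p up to 0.961). The span of BMPR1A overlaps that of MMRN2 in Sscrofa11.1, a gene with between 192 and 329 counts per library.

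BMPR2, the type II receptor that binds BMPs most selectively, had 49.3 and 43.2 CPM in LGR5-high and 38 and 37 CPM in LGR5-negative of pigs 88R and 95R. Both LGR5-high libraries lay above both LGR5-negative ones. The log2 fold change was 0.3 (standard error 0.105, edgeR adjusted p = 0.0627), and with the replicate block it was 0.3 with an adjusted p of 0.0237 from edgeR. DESeq2 with the block gave 0.29 and an adjusted p of 0.148. Over all 14 alternatives its adjusted p lay between 0.0101 and 0.298, and 4 of them called it. BAMBI, a receptor-like protein without a kinase that blocks BMP and TGF-beta receptors, had 11.9 and 11.8 CPM in LGR5-high and 11.5 and 8.84 CPM in LGR5-negative. The LGR5-negative library of pig 88R nearly reached the LGR5-high level, and the log2 fold change was 0.22 (standard error 0.176, edgeR adjusted p = 0.357).

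The other receptors and co-receptors moved in both directions. Of 10 tested genes, 5 were higher and 4 lower, beside 22.7% and 22.0% of all tested genes. The median log2 fold change of the list was 0.39. Among type I receptors, BMPR1B was lower (13.4 and 13.9 against 32.4 and 25.1 CPM in pigs 88R and 95R, log2 fold change -1.07, standard error 0.156, edgeR adjusted p = 0.00334). ACVR1, another type I receptor of BMPs, was higher with 52 and 45.9 against 31 and 32.5 CPM (log2 fold change 0.62, edgeR adjusted p = 0.00571). ACVRL1, best known from endothelium, was higher with 12.1 and 13.3 against 0.667 and 1.09 CPM (log2 fold change 3.85, standard error 0.273, edgeR adjusted p = 0.000283). The type II receptors ACVR2A and ACVR2B, shared with activins, went opposite ways with log2 fold changes of -1.19 and 0.72 (edgeR adjusted p = 0.0055 and 0.00654). ACVR2A had 20.3 and 27.5 against 47 and 62.1 CPM, and ACVR2B had 22.8 and 23 against 13 and 14.8 CPM.

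Among co-receptors, RGMA, a membrane-anchored BMP co-receptor, had 147 and 153 CPM in LGR5-high and 19.7 and 35.1 CPM in LGR5-negative of pigs 88R and 95R (log2 fold change 2.45, standard error 0.262, edgeR adjusted p = 0.0011). ENG, the endothelial partner of ACVRL1, was also higher, with 7.88 and 4.63 against 1.23 and 0.927 CPM (log2 fold change 2.54, edgeR adjusted p = 0.00302). In Sscrofa11.1 its span overlaps that of FPGS, which held more counts than ENG in every library. FPGS had 535 and 611 counts in LGR5-high and 290 and 331 in LGR5-negative, and ENG had 271 and 153 against 35 and 28. TGFBR3, the co-receptor betaglycan, was lower, with 10.7 and 13.3 against 68.1 and 86.5 CPM (log2 fold change -2.68, standard error 0.172, edgeR adjusted p = 0.000208). Markers of endothelium are given beside ACVRL1 and ENG. Their summed level was 9.6 and 11.6 CPM in LGR5-high against 15.6 and 16.4 in LGR5-negative, 1 of 7 tested markers was higher and 4 were lower. The higher marker was TIE1, with 4.39 and 4.81 against 1.97 and 2.65 CPM, and CDH5, which defines endothelium, had 1 and 1 counts in LGR5-high and 17 and 21 in LGR5-negative. The part of such cells in the ACVRL1 and ENG levels was not tested.

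GREM1 was the member with the largest difference. Gremlin 1 is a secreted protein that binds BMP2, BMP4 and BMP7 and keeps them from their receptors. In LGR5-high, pig 88R gave 299 and pig 95R gave 430 counts of GREM1, and in LGR5-negative they gave 1 and 4. These were 8.7 and 13 CPM in LGR5-high and 0.0351 and 0.132 CPM in LGR5-negative, so that the gene was at or near the floor there. GREM1 passed the filter on low counts through LGR5-high alone, so its call and p-value are a description only. The ratio of normalised counts was 248 in pig 88R (95% exact Poisson interval 44.1 to 9820) and 98.3 in pig 95R (38.1 to 363). Summed over the pigs it was 127 (54.2 to 392), and these intervals cover counting error only. The fitted log2 fold change was 6.93 (standard error 0.483, edgeR adjusted p = 0.000266), a value that depends on the prior count. It was 6.32 without the LGR5-negative library of pig 88R and 8.12 without that of pig 95R.

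GREM1 is widely known from connective tissue cells, so the fibroblast and dermal papilla markers are given beside it. Of the 9 tested fibroblast markers, 4 had a higher and 4 a lower level in LGR5-high, and their summed level was 1260 and 1500 CPM against 679 and 373 CPM in pigs 88R and 95R. PDGFRA had 4 and 3 counts in LGR5-high and 21 and 21 in LGR5-negative, and LUM had 5 and 0 against 47 and 31. Other markers went with GREM1, among them COL1A2 with 17092 and 18545 counts against 1644 and 725 and THY1 with 17314 and 15406 against 7620 and 3544. Of the 9 dermal papilla markers only 3 were tested, HEY1 alone was higher, and SOX2 held 3 and 5 counts in LGR5-high and 0 in LGR5-negative. RSPO3 and FGF10 of that list went the other way, with 1 and 1 against 6 and 13 counts and 0 and 0 against 3 and 5 counts. The part of such cells in the GREM1 level was not tested.

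**Figure D2:**
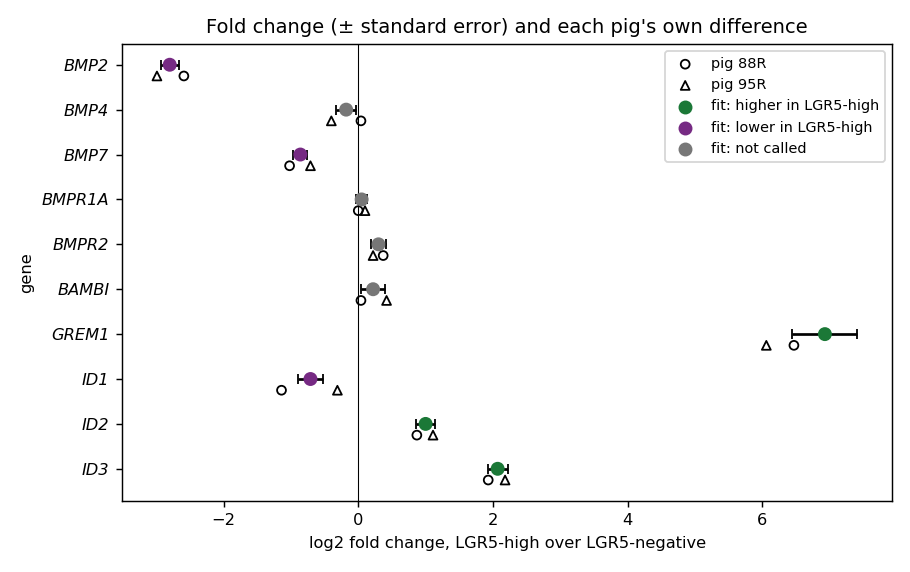
Log2 fold change of LGR5-high over LGR5-negative from edgeR (filled points, bars are standard errors) with the difference in pig 88R (open circles) and pig 95R (open triangles), both from log2 CPM with a prior count of 2. The values ran from -2.8 for BMP2 to 6.93 for GREM1, and the pigs lay on opposite sides of 0 for BMP4 (0.04 and -0.4).

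Of the other secreted antagonists and modulators of BMPs, 8 of 14 tested genes were higher and 2 lower in LGR5-high, beside 22.7% and 22.0% of all tested genes. Their median log2 fold change was 1.47, beside 0.02 for all tested genes, and no test of the list was made. BMPER, a secreted protein that binds BMPs, had 18.5 and 20.7 CPM in LGR5-high and 0.983 and 1.06 CPM in LGR5-negative of pigs 88R and 95R. Its log2 fold change of 4.26 (standard error 0.182, edgeR adjusted p = 7.39e-05) was nearly alike in the pigs, at 4.15 and 4.21. In Sscrofa11.1 the span of BMPER overlaps that of BBS9, which held between 262 and 454 counts per library. FSTL1, a secreted follistatin-like protein, had 370 and 356 against 34.9 and 48.3 CPM (log2 fold change 3.13, standard error 0.167, edgeR adjusted p = 0.000127).

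FST, the activin and BMP binding protein follistatin, had 33.6 and 41.1 CPM in LGR5-high and 3.65 and 7.64 CPM in LGR5-negative of pigs 88R and 95R (log2 fold change 2.72, standard error 0.338, edgeR adjusted p = 0.00186). It was 2.29 without the LGR5-negative library of pig 88R and 3.35 without that of pig 95R. BMP1, which despite its name is a protease that cleaves procollagens and the antagonist chordin, had 67.2 and 70.7 against 9.09 and 16.4 CPM (log2 fold change 2.43, edgeR adjusted p = 0.0012). The span of BMP1 overlaps that of LOC110256603, with 189 and 244 counts in LGR5-high and 33 and 47 in LGR5-negative. NBL1 and KCP were the lower genes of the list, at -1.95 and -0.47 on the log2 scale (edgeR adjusted p = 0.00369 and 0.0444), named here because they were so few. NBL1 had 138 and 105 CPM in LGR5-high and 604 and 336 CPM in LGR5-negative of pigs 88R and 95R. The summed level of the whole list was 1090 and 1010 against 878 and 652 CPM. NOG, the antagonist noggin, was not tested, with 5 and 8 counts in LGR5-high and 0 and 6 in LGR5-negative, so that a difference was not detectable at this depth.

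Of the SMAD genes that carry the signal, SMAD9 alone was called. SMAD1 had 80.2 and 68.4 CPM in LGR5-high and 62 and 67.6 CPM in LGR5-negative of pigs 88R and 95R (log2 fold change 0.2, edgeR adjusted p = 0.191). SMAD5 had 72.1 and 66.6 against 77.9 and 83.8 CPM (log2 fold change -0.22, edgeR adjusted p = 0.09), and SMAD4, the partner shared with TGF-beta, had 111 and 105 against 98.2 and 104 CPM (0.1, edgeR adjusted p = 0.371). With library size only, SMAD1 and SMAD4 were called higher, at 0.42 and 0.32 beside the median of 0.24, and SMAD5 was at 0.0024.

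SMAD9 had 2.18 and 2.36 CPM in LGR5-high and 0.491 and 0.827 CPM in LGR5-negative of pigs 88R and 95R. It was higher, with a log2 fold change of 1.77 (standard error 0.36, edgeR adjusted p = 0.0109), and lost the call without the LGR5-high library of pig 88R (1.82, edgeR adjusted p = 0.0525) or of pig 95R (1.72, 0.0649). SMAD6, an inhibitory SMAD that BMP signals themselves induce, had 15.9 and 18 CPM in LGR5-high and 5.23 and 6.68 CPM in LGR5-negative (log2 fold change 1.51, standard error 0.179, edgeR adjusted p = 0.00156). SMAD7, the other inhibitory SMAD, was not called and is named here after its values were seen. It had 40.7 and 38.8 against 38.1 and 35.4 CPM (log2 fold change 0.11, edgeR adjusted p = 0.379). Of the 12 tested SMADs and their regulators, 2 were higher and 3 lower, beside 22.7% and 22.0% of all tested genes. The median log2 fold change of that list was 0.05. The phosphatase genes PPM1A and CTDSP2, whose products act on SMADs, were lower by small amounts, -0.36 and -0.4 on the log2 scale (edgeR adjusted p = 0.0128 and 0.0282). PPM1A was not called with library size only (-0.14), nor without the LGR5-high library of pig 88R (edgeR adjusted p = 0.0587), that of pig 95R (0.0585) or the LGR5-negative library of pig 95R (0.0678). CTDSP2 was not called with library size only (-0.18), without the LGR5-high library of pig 95R (edgeR adjusted p = 0.124) or without the LGR5-negative library of pig 95R (0.112).

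The ID genes, the readiest targets of BMP signalling, did not move together. ID1 was lower in LGR5-high while ID2, ID3 and ID4 were higher. ID1 had 128 and 179 CPM in LGR5-high and 282 and 222 CPM in LGR5-negative of pigs 88R and 95R. The libraries did not overlap, but pig 95R showed a much smaller gap, with a log2 difference of -0.31 against -1.14 in pig 88R. The log2 fold change was -0.71 (standard error 0.192, edgeR adjusted p = 0.0278). ID1 lost its call without the LGR5-high library of pig 88R (-0.5, edgeR adjusted p = 0.102), without the LGR5-negative library of pig 88R (-0.53, edgeR adjusted p = 0.0866) and with library size only (-0.49, edgeR adjusted p = 0.0726). Over the 14 alternatives its adjusted p lay between 0.000225 and 0.231, and the log2 fold change stayed negative, from -0.98 to -0.49.

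ID2 had 87.8 and 114 CPM in LGR5-high and 48 and 52.4 CPM in LGR5-negative of pigs 88R and 95R. Its level was 2.01-fold higher, a log2 fold change of 1 (standard error 0.14, edgeR adjusted p = 0.00284), and the difference within pigs 88R and 95R was 0.87 and 1.11. ID3 had 115 and 150 CPM in LGR5-high and 30.1 and 33.1 CPM in LGR5-negative. Each LGR5-high library lay far above both LGR5-negative ones, and ID3 was 4.2-fold higher, a log2 fold change of 2.07 (standard error 0.149, edgeR adjusted p = 0.000293). ID4, the remaining gene of the family, had 339 and 385 CPM in LGR5-high and 68.4 and 61.5 CPM in LGR5-negative, and it was 5.57-fold higher, a log2 fold change of 2.48 (standard error 0.107, edgeR adjusted p = 7.6e-05).

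Ratios of 2 genes within a library do not depend on the scaling between libraries, and the length of the genes cancels when the ratio is compared between populations. The log2 ratio of ID3 to ID1 counts was -0.15 in LGR5-high and -3.23 in LGR5-negative of pig 88R, and -0.25 and -2.75 in pig 95R. ID3 thus gained on ID1 by 3.07 and 2.49 on the log2 scale in pigs 88R and 95R. The same difference was 2.01 and 1.42 for ID2 and 3.45 and 2.95 for ID4. In each pig the gain was largest for ID4 and smallest for ID2 of these 3 genes. All 3 ratios share ID1, so this order cannot depend on ID1 and only restates the genes' own differences. The size of the gains does depend on ID1, whose difference varied between the pigs.

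Of the other BMP targets, 3 of 7 tested genes were higher and 1 was lower, beside 22.7% and 22.0% of all tested genes. The median log2 fold change of this list was 0.31. Besides ID4, the homeobox gene MSX1 had 4.8 and 3.36 CPM in LGR5-high and 1.19 and 1.09 CPM in LGR5-negative of pigs 88R and 95R (log2 fold change 1.83, edgeR adjusted p = 0.00502). HEY1, a transcriptional repressor also controlled by Notch, had 9.45 and 7.48 against 3.19 and 2.65 CPM (1.54, edgeR adjusted p = 0.00344). GATA3, a factor of the inner root sheath and epidermis, was lower, with 280 and 271 against 500 and 531 CPM (-0.9, standard error 0.0802, edgeR adjusted p = 0.000574).

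All 3 E protein genes, whose products are the partners that ID proteins bind, were higher in LGR5-high, beside 22.7% of all tested genes. TCF4 had 66.9 and 70.2 CPM in LGR5-high and 24.4 and 29.4 CPM in LGR5-negative of pigs 88R and 95R, with a log2 fold change of 1.35 (standard error 0.12, edgeR adjusted p = 0.000568). TCF12 had 197 and 181 against 75 and 83.5 CPM (1.25, standard error 0.0939, edgeR adjusted p = 0.000331). TCF3 had 99.3 and 87.4 against 68.7 and 67.1 CPM, and its log2 fold change of 0.46 (edgeR adjusted p = 0.0109) lost the call without the LGR5-high library of pig 88R (0.36, edgeR adjusted p = 0.0581).

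The short list of follicle stem cell factors tied to BMP signalling in mice had 4 of 5 higher, beside 22.7% of all tested genes. Its median log2 fold change of 4.41 is the value of SOX9. The list was chosen with earlier results of these libraries known, so the count is a description only. LHX2 and SOX9, factors of the follicle stem cell, were higher by 6.35 and 4.41 on the log2 scale, and they are known from earlier results of these libraries. FGF18, a growth factor that like BMPs favours the resting phase of the hair cycle, had 48 and 38.2 CPM in LGR5-high and 0.912 and 0.43 CPM in LGR5-negative of pigs 88R and 95R. Its log2 fold change was 6.01 (standard error 0.309, edgeR adjusted p = 0.000115), 6.63 without the LGR5-negative library of pig 88R and 5.56 without that of pig 95R. FOXC1, which in mice sustains BMP signals in the bulge, had 92.6 and 84.2 against 33.4 and 36.3 CPM (1.34, standard error 0.0979, edgeR adjusted p = 0.000305). NFATC1, a factor induced by BMP in mouse bulge cells and the only gene of the list not called, had 119 and 95.8 CPM in LGR5-high and 85.6 and 102 CPM in LGR5-negative, with overlapping libraries and a log2 fold change of 0.19 (edgeR adjusted p = 0.308).

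**Figure D3:**
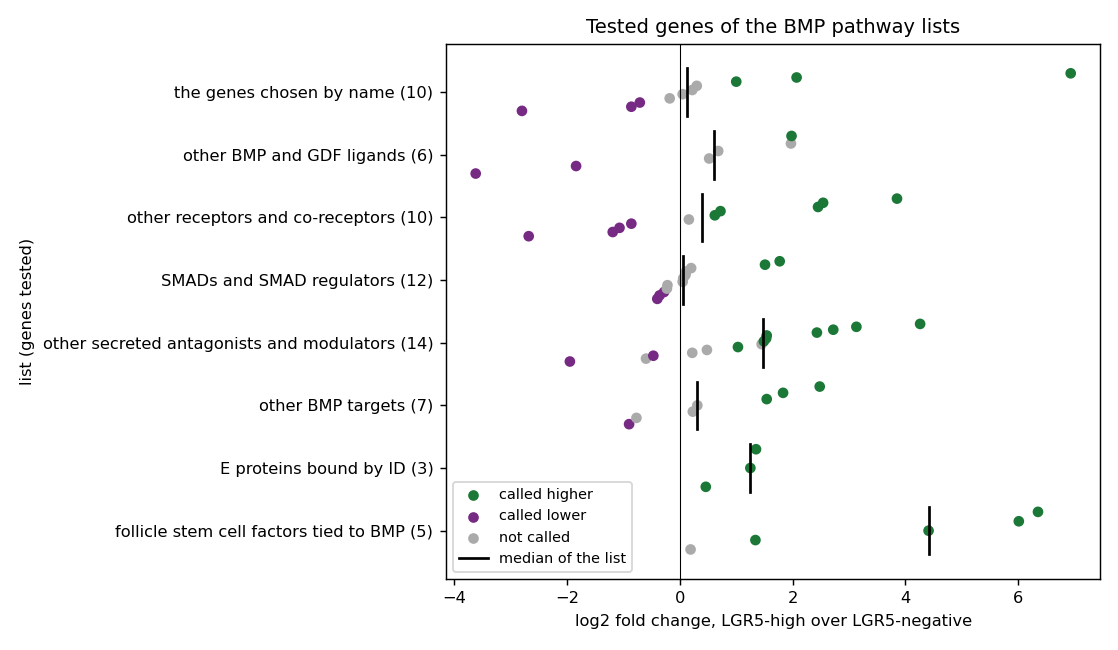
Log2 fold changes of LGR5-high over LGR5-negative for the tested genes of each list, 1 point a gene, coloured by edgeR's call (adjusted p under 0.05), with the median of each list as a black bar. The list of secreted antagonists and modulators centred at 1.47, the SMAD list at 0.05, and the ligand and receptor lists held points on both sides of 0.

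Over the 75 genes of these lists beside the 10, 57 were tested, 26 were higher, 12 were lower and 19 were not called, and their median log2 fold change was 0.52. Over all tested genes 22.7% were higher and 22.0% were lower. The count of lower genes fell to 7 without the LGR5-high library of pig 95R. With the replicate block, 29 were higher and 12 were lower, beside 28.5% and 27.2% of all tested genes, and the genes added were BMP8B, CHRD and UNC5B, named here after their values were seen (log2 fold changes of 1.81, 1.43 and 0.31, adjusted p of 0.0107, 0.0248 and 0.0171 from edgeR with the block).

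**Figure D4:**
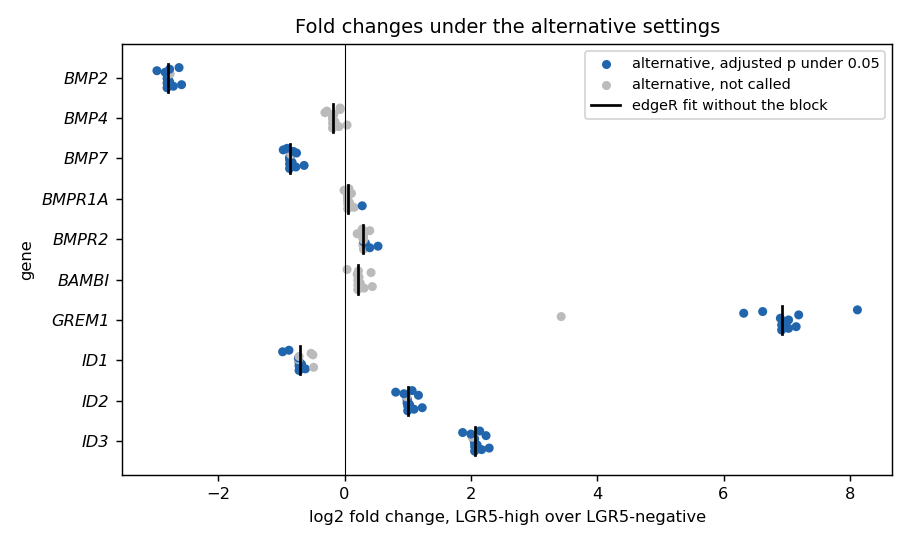
Log2 fold change of each of the 10 genes under the alternative settings (points, blue where the adjusted p was under 0.05) and in the edgeR fit without the block (black bars). ID1 was called in 9 of 14 alternatives and BMPR2 in 4 of 14, and the isolated GREM1 point at 3.43 is the t-test on log2(CPM + 1).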

How the data were processed

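Sorted LGR5-high and LGR5-negative epidermal cells of 2 pigs gave 4 poly(A)-selected libraries. Deposited by the authors were raw counts for each gene symbol, not normalized. The submitters' processing notes name Trimmomatic 0.36, STAR 2.5.2b and featureCounts of Subread 1.5.2, and the genome build, annotation and strand setting are not given in the sources used here. All 29837 symbols matched RefSeq's Sscrofa11.1 table, used for names and overlaps only. No sequences or exon lengths were used here, so levels and sums of genes in CPM are not corrected for gene length. A ratio of 2 genes in 1 library, and its sign, depends on their lengths, and only its difference between populations does not. The 1 entry without a name (0.36% to 0.626% of counts) was left out.

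The populations were compared by the quasi-likelihood test of edgeR 4.0.16 in R 4.3.3 (filterByExpr at min.count 10 and min.total.count 15, TMM, no other term, 2-sided, Benjamini-Hochberg over 15980 genes, called under 0.05). Standard errors were the log2 fold change over the root of the F statistic. Differences within a pig used log2 CPM with a prior count of 2. Alternatives were other scalings (DESeq2 size factors, upper quartile, library size only), other filters (at least 1 count, or at least 10 in every library), the pig as a replicate block, DESeq2 1.42.0 with and without the block, voom of limma 3.58.1, the Student's t-test that the study's methods name (on log2 of CPM plus 1) and leaving out each library. The pairing comes from the pig numbers in the labels, and deviations from the population means correlated between libraries of 1 pig at 0.37. The fits were run on simulated data with no pig effect, less spread than the fit without the block found, and far fewer changed genes. That run checks the code and not the calls made here. Plots were drawn with matplotlib 3.10.9.

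The 10 genes and the lists were chosen with earlier results of these data known. Named from each list were up to 4 called genes with the largest change, and SMAD1, SMAD5, SMAD9, SMAD4, ACVR1, BMPR1B, ACVR2A, ACVR2B, NOG and ID4 in any case. Markers were to be named at 0 or as the highest of their list, and the others named were chosen after their values were seen.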

Additional observations from a re-analysis of the deposited data

How the results depend on the processing

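With 2 libraries in each population, edgeR's p-values rest on the spread between 2 pigs and on spread shared over all tested genes. The t-test uses the spread of each gene alone. Genes at a few counts are limited by depth. Of the alternatives that kept all 4 libraries, library size only and the t-test changed the counts of the 10 genes most, and the cause was not tested. Library size only called 5 of the 10 higher, and over all genes 5473 higher and 2326 lower. The t-test called 0 of the 10 higher and 0 lower (3 and 2 at an unadjusted p under 0.05; DESeq2, limma-voom and the edgeR replicate block each called 3 or 4 higher), 5 of the list genes higher and 1 lower, and 544 genes higher and 502 lower in all. The replicate block, where the pairing is by animal, called 4 of the 10 higher and 3 lower, 29 list genes higher and 12 lower, and 4562 and 4342 of all genes. DESeq2 with the block did not call ID1 (-0.73, adjusted p = 0.183) or BMPR2. Leaving out each library in turn assumes that the lone library varies like the others, and gave 3 of the 10 higher each time and 2 to 3 lower, 21 to 25 list genes higher and 7 to 9 lower, and 2292 to 3140 of all genes higher and 2164 to 2925 lower. The lowest counts over all genes (2292 and 2164), and the 7 lower list genes, came without the LGR5-high library of pig 95R. Without that of pig 88R, 2300 genes in all and 21 list genes were higher, and without either library of pig 88R 2 of the 10 were lower. Signs turned for genes that were not called: BMP4 (0.04) and SMAD5 (0.0024) with library size only, and BMPR1A (-0.0079, in a range up to 0.11 when each library was left out) without the LGR5-high library of pig 95R. Among the 10 genes, 122 of the remaining values kept their side of the threshold and their direction, 10 lost a call and 5 gained one. GREM1 had no value with at least 10 counts in every library.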

Other observations

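By distance of centred log2 CPM over the 4 libraries, the genes nearest to GREM1 were CPXM2 (0.337), LGR5 (0.357) and ST8SIA6 (0.523). CPXM2 had 51.9 and 62.4 CPM in LGR5-high and 0.386 and 0.794 CPM in LGR5-negative of pigs 88R and 95R, and ST8SIA6 had 13.5 and 19.6 against 0.0351 and 0.165 CPM. LGR5, the gene whose reporter set the sort, and GREM1 were both higher in pig 95R than in pig 88R in LGR5-high. In LGR5-negative, GREM1 held 1 and 4 counts, too near the floor to compare the pigs. At such counts the distance also depends on the prior count of 2. The genes nearest to BMP2 were RORA (0.0324), IL1RAP (0.149) and APOA1 (0.15). RORA, a nuclear receptor gene, had 99.7 and 94.1 CPM in LGR5-high and 606 and 756 CPM in LGR5-negative, and IL1RAP, the accessory chain of the interleukin-1 receptor, had 20.1 and 19.9 against 119 and 138 CPM. APOA1 was close to BMP2 at far lower counts, 2 and 2 against 21 and 25. With 4 libraries this likeness is a description only.

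Further ratios within a library, chosen after the values were seen, concern genes with a related role. The log2 ratio of BMP2 to BMP7 counts was lower in LGR5-high by -1.57 in pig 88R and -2.29 in pig 95R, and it went from 1.08 and 1.52 in LGR5-negative to -0.49 and -0.76 in LGR5-high. The log2 ratio of BMPR1A to BMPR1B counts was higher in LGR5-high by 1.27 and 0.95. Markers of smooth muscle cells and pericytes had 4 of 6 tested genes higher and 1 lower, with summed levels of 386 and 399 CPM in LGR5-high and 555 and 652 in LGR5-negative. The sum was nearly all NOTCH3 (369 and 383 against 551 and 646 CPM), the lower gene. The higher ones were ACTA2 (3.9 and 4.3 against 0.772 and 1.16 CPM), CNN1 (4.83 and 4.57 against 0.386 and 0.331 CPM), MYH11 and RGS5. Markers of Schwann cells and nerve had 2 of 4 tested genes higher and 1 lower, with summed levels of 58.9 and 78.9 against 5.44 and 10.8 CPM. Most of that sum in LGR5-high was NGFR (51.1 and 65.1 against 2.25 and 2.08 CPM), SOX10 was the lower gene, and CDH19 was at 0 counts in all libraries.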
